A study of Homo sapiens with 42 samples.

Results

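The messenger RNAs of 7 enzymes of haem synthesis, ALAS1, ALAD, UROS, UROD, CPOX, PPOX and FECH, were followed in a study that writes A-to-G changes into RNA inside living cells. They were chosen by gene symbol from the bulk tables of poly(A) and rRNA-depleted RNA and are 7 of 11671 single gene symbols listed there. Over 7 site lists they account for 886 distinct sites and 1950 listings.

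TadA-8e is an adenosine deaminase that turns adenosine into inosine, which sequencing reads as G. Plasmids carried it in 3 forms, named for the peptide that places the enzyme: NES for the cytoplasm, NLS for the nucleus and ERM for the membrane of the endoplasmic reticulum, and the design text states that adenosines in particular RNA structures are changed. HEK293T, a human embryonic kidney line, received the plasmids by lipid transfection and K562, a human erythroleukaemia line, by electroporation, so the route of delivery cannot be told apart from the cell line. Control cells received a GFP plasmid, and GFP-positive cells were sorted before RNA extraction in all groups. The groups used here were HEK293T poly(A) RNA with NES, NLS and ERM, K562 poly(A) RNA with NES and NLS, and HEK293T rRNA-depleted RNA with NES and NLS, each with 2 libraries. In addition 10 single HEK293T cells with NES and the genomic DNA of K562 with NLS and control were read. The amount of enzyme in each group was not analysed here.

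The rate of a site is the share of reads changed, given per library. The tables hold no read numbers, so depth is unknown. Rates of the control libraries were not analysed here. Each listed site of the enzymes had an authors' adjusted p against control under 0.05 in both libraries, but the full rule for listing is not given. There is 1 list per group, so the number of sites has no replicates. The lists held between 340436 and 945447 sites in all. In bulk RNA, fewer cells with a message and less message per cell cannot be told apart. The erythroid markers followed the cell lines: 16 of 16 genes had sites in K562 and 0 of 16 in HEK293T poly(A) RNA. The HEK293T markers did so only in part. Of these, 4 of 8, the neurofilaments NEFM, NEFL and INA and the homeobox gene BARX2, had sites in HEK293T. PAX2, LHX1 and SOX11 had no site in poly(A) RNA of either line, and DLK1 had sites in K562 only, 16 with NES and 6 with NLS.

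Haem synthesis begins and ends in mitochondria. ALAS joins glycine and succinyl-CoA in the matrix, where the ALAS1 form serves nearly all cells and the ALAS2 form serves red cell precursors. In the cytosol ALAD makes the pyrrole porphobilinogen, UROS closes the ring and UROD removes carboxyl groups from its side chains, while the step between ALAD and UROS was not analysed here. CPOX and PPOX then oxidise the ring back in mitochondria, and FECH inserts iron. Red cell precursors make haem in large amounts, and the transcription factor GATA1 is known to drive many genes of the pathway in them.

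The clearest difference between the lines was in the number of listed sites, which was larger in K562 for UROD and for the late enzymes and smaller for ALAS1. With NES, FECH had 252 sites in K562 and 57 in HEK293T, a ratio of 4.42. CPOX had 132 and 47 sites, a ratio of 2.81, and UROD had 132 and 48, a ratio of 2.75. PPOX had 52 sites in K562 and 1 in HEK293T. ALAS1 went the other way with 76 and 152, a ratio of 0.50. ALAD, with 26 and 31 sites, and UROS, with 38 and 48, lay closer together. So 4 of 7 enzymes had at least 2-fold more sites in K562, where 21.7% of 9912 genes did, and 1 of 7 had at least 2-fold fewer, where 22.6% did. The median ratio was 2.75 over the 7 enzymes and 1.05 over 8174 genes with sites in both lists.

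The NLS lists held the same 4 enzymes at more sites in K562. FECH had 67 sites in K562 and 8 in HEK293T, UROD 103 and 45, CPOX 42 and 16, and PPOX 14 and 1. ALAS1 had 25 and 86 and UROS 5 and 13, while ALAD had 6 and 9. At least 2-fold more sites were listed for 4 of 7 enzymes against 22.1% of 8342 genes, and at least 2-fold fewer for 2 of 7 against 26.3%. No test can be made of these numbers.

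**Figure D1:**
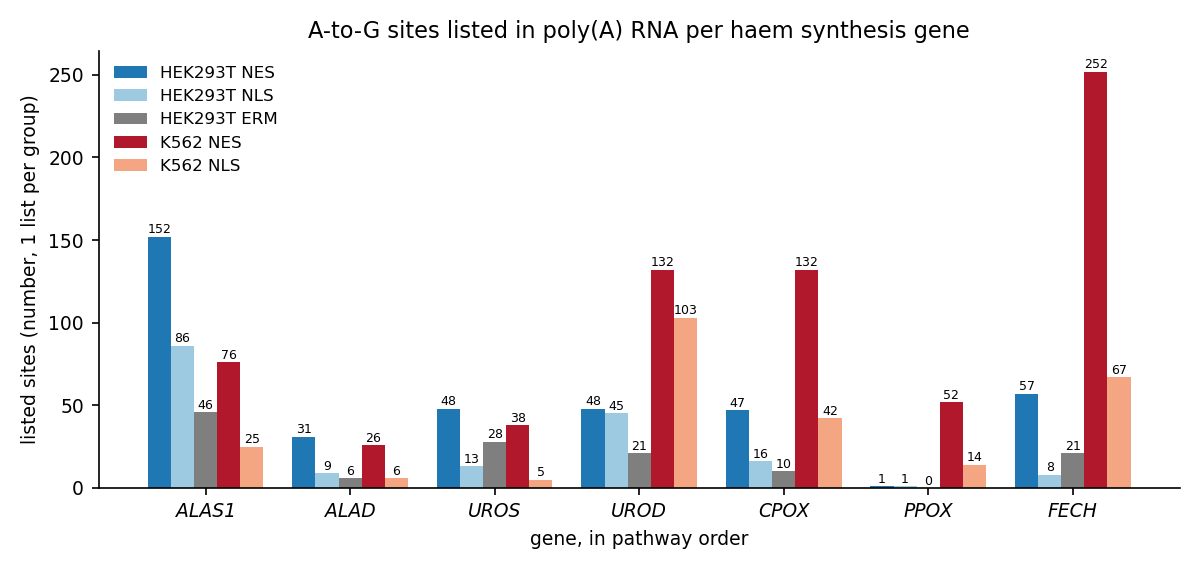
Number of A-to-G sites listed per gene in poly(A) RNA (vertical axis) for the 7 enzymes in pathway order (horizontal axis), with 1 bar for each of 5 groups and the number above it. FECH reaches 252 sites with NES in K562 and 57 in HEK293T, and ALAS1 falls from 152 in HEK293T to 76 in K562.

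The DNA before the start is shown for 3 of the enzymes: CPOX, with more K562 sites, FECH, with the most K562 sites, and ALAS1, with fewer. Each is the 250 bases before the RefSeq start (GRCh38.p14), 5′ to 3′ on the gene's strand, at chr3:98593612-98593861 (minus strand) for CPOX, chr18:57586703-57586952 (minus strand) for FECH and chr3:52197833-52198082 (plus strand) for ALAS1. Capitals mark matches, on either strand, to a GATA word (GATA preceded by A or T and followed by A or G) or to the GC box GGGGCGGGG. No matches overlap in the sequences shown.
CPOX: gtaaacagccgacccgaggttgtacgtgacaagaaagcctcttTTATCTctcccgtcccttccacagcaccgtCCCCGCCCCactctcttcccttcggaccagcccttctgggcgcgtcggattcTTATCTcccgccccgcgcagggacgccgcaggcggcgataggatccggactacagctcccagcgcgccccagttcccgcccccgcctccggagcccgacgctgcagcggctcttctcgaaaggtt
FECH: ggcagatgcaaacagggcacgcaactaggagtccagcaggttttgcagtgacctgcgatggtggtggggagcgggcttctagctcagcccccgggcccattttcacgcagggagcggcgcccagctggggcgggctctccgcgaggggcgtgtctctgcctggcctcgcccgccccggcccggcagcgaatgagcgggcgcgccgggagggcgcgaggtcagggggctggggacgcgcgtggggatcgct
ALAS1: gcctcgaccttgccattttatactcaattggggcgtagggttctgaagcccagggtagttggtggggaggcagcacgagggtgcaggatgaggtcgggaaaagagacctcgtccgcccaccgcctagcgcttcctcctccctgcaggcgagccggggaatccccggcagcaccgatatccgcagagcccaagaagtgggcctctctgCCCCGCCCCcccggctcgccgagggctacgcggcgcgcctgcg
CPOX held 2 GATA words and 1 GC box, ALAS1 held 1 GC box and FECH held neither. RefSeq gives 8 windows for 6 of the enzymes, and 3 of 8 held a GATA word, against 22.3% of 35116 windows. They were the CPOX window and the second windows of ALAD and PPOX. The PPOX match lay inside its window, 63 bases before the RefSeq start that the window precedes. That window lies within the PPOX interval, which begins at chr1:161165728. Beside the match stood a CACCC word (CCACACCC or its reverse complement, in 2.97% of windows and 1 of 8 here). The 30 bases at chr1:161166566-161166595 on the plus strand show both, again with matches in capitals.
PPOX: tagcgaGGGTGTGGcccTTATCTgcaccca
GC boxes stood in 2 of 8 windows and in 15.1% of all. UROD, with more sites in K562, held no match of any kind, and UROS is not in the promoter table. A match is a string of letters, not a bound site, and whether matches bear on site numbers was not tested.

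A higher number of sites in 1 line came with weaker sites being listed there. All 48 UROD sites of HEK293T with NES were among the 132 of K562, and the 84 further K562 sites had a median rate of 2.31% against 9.96% for the shared ones. For FECH, 56 of 57 HEK293T sites (98.2%) were among the 252 of K562 (22.2%), and the 196 further sites had a median of 9.00% against 21.0%. CPOX shared 43 sites, 91.5% of its HEK293T list and 32.6% of its K562 list, with medians of 7.78% for the 89 sites of K562 alone and 13.8% for the rest. ALAS1 showed the mirror image: all 76 K562 sites were on the HEK293T list, and the 76 sites of HEK293T alone had a median of 4.07% against 11.1%. ALAD behaved differently, since its lists shared 12 sites (46.2% of K562 and 38.7% of HEK293T) and its 14 K562-only sites had a median of 25.9% against 28.7%. Of the 196 FECH sites of K562 alone, 90 still had a rate of 10% or more. How far read coverage sets these lists was not tested.

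Rates were then compared at sites listed in both groups of a comparison, which leaves out sites that only 1 list holds. For each library the rates of a gene's shared sites were averaged, and log2 averages were compared with limma over all genes with at least 5 shared sites, with Benjamini-Hochberg adjustment and a threshold of 0.05. Since the median gene moved between groups, log2 differences are given relative to it with their standard error (SE), and counts without that centring stand beside them. Nothing in the labels says that the 2 libraries of a group came from separate cultures, and p-values then cover only the spread between them, which may be technical. Moreover a single value compared 2 against 2 by exact permutation cannot give a p under 0.33.

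ALAS1, the rate-limiting first enzyme outside red cells, had lower rates with the ERM enzyme than with either other enzyme. Over 46 shared sites its rate was 10.2% and 10.4% in the ERM libraries and 22.5% and 22.6% in the NES libraries. All 46 sites had both ERM values below both NES values, as did 75.9% of 353974 sites of all genes, while 0 of 46 lay above, as did 1.99%. The log2 difference was -0.47 ± 0.07 (SE) relative to the median gene (limma adjusted p = 0.000505). Against NLS, over 40 sites, ERM libraries gave 9.37% and 9.39% and NLS libraries 12.7% and 14.3%, a relative log2 difference of -0.65 ± 0.08 (limma adjusted p = 2.14e-05). ALAS1 was called lower in each of the 12 alternatives computed for each comparison.

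Between NES and NLS, ALAS1 followed the median gene in HEK293T. Its 82 shared sites averaged 14.7% and 14.6% with NES and 9.30% and 10.2% with NLS, so the libraries did not overlap, but the relative difference was -0.07 ± 0.07 (limma adjusted p = 0.367). In K562 its 25 shared sites averaged 29.4% and 30.9% with NES and 16.4% and 16.1% with NLS, a relative difference of 0.17 ± 0.08 (limma adjusted p = 0.0665). With all libraries kept, that difference passed with no filter on sites (0.24, limma adjusted p = 0.0241), without the variance trend (0.0363) and uncentred (0.89, 4.54e-06). With 1 library left out it lay between 0.14 and 0.21. Between the lines, ALAS1 was lower in K562 with NLS over 24 sites, with 16.5% and 16.1% in K562 and 17.2% and 18.4% in HEK293T, a relative difference of -0.35 ± 0.11 (limma adjusted p = 0.00934). That call was lost in 4 of 11 alternatives: uncentred (adjusted p = 0.324), with medians of site rates (0.102), and without the second K562 library (0.0539) or the second HEK293T library (0.0632), all by limma. With NES, over 76 sites, K562 gave 19.3% and 19.5% and HEK293T 16.7% in both libraries, a relative difference of -0.13 ± 0.05 that did not pass (limma adjusted p = 0.0664).

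The site with the highest HEK293T rate among ALAS1 sites shared by NES and NLS was at chr3:52211310 (hg38, plus strand, 13227 bases from the gene's start), with 60.4% and 57.7% with NES and 33.8% and 36.7% with NLS. The next, chr3:52206014, had 51.0% and 51.4% with NES and 18.3% and 14.9% with NLS, and chr3:52214165, which lies 162 bases from the gene's end, had 48.2% and 48.1% against 29.5% and 20.7%. In every one of these the NES libraries lay above the NLS libraries, an order that picking sites by their NES rate favours. In K562 with NES the 3 sites averaged 71.7%, 60.3% and 53.5%. Over the 76 sites shared by the lines with NES, site rates correlated with r = 0.98, a description across sites of 1 message. Exon positions were not analysed here, so sites are given by their distance in genomic DNA.

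ALAS1 had 20 sites listed in all 5 poly(A) groups, the most of the 7 enzymes. Among 3702 genes with at least 10 such sites, the genes whose rates were nearest to it over 10 libraries were MED15, YLPM1 and KANSL3, at Euclidean distances of 0.487, 0.505 and 0.511 in log2 units relative to each library's median gene. The median distance to ALAS1 was 2.72.

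Of the cytosolic enzymes, ALAD stood apart in K562. Its 5 shared sites gave 22.4% and 32.4% with NES and 27.4% and 29.4% with NLS, so the libraries overlapped where the median gene was higher with NES. The relative log2 difference was -0.80 ± 0.20 (limma adjusted p = 0.00606). The call rests on few sites and on centring: uncentred the difference was -0.08 (limma adjusted p = 0.724), and without the first K562 NES library it was -0.53 (0.0854). Of these 5 sites 2 had both NES values below both NLS values and 0 had them above, where 14.9% and 59.3% of 419663 sites did. Among sites listed with both NES and NLS in K562, the widest NLS excess of any enzyme was at chr9:113386467 (minus strand, 155 bases from the gene's end). It gave 16.0% and 21.3% with NES and 37.9% and 25.0% with NLS.

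In HEK293T the 5 ALAD sites shared by NES and NLS gave 20.8% and 19.6% with NES and 14.4% and 14.9% with NLS, which was not called (relative difference -0.20 ± 0.17, limma adjusted p = 0.331). Of ALAD sites, 26 of 31 in HEK293T and 24 of 26 in K562 with NES lay in the last 2000 bases of its interval, which are 13.4% of its length. The replicates differed more at ALAD sites than at those of the other enzymes, with a median difference of 5.61 percentage points in HEK293T and 6.43 in K562 with NES, against 2.30 and 2.01 over all sites of the enzymes. Between the lines with NES, over 12 sites, ALAD gave 31.5% and 34.2% in K562 and 22.9% and 21.3% in HEK293T and was not called (relative difference 0.22 ± 0.12, limma adjusted p = 0.135).

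UROS had the largest log2 difference between NES and NLS among the enzymes tested in HEK293T. In percentage points the gap was wider for FECH, with means of 25.3% and 11.9% against 18.3% and 6.47% for UROS. The 11 shared UROS sites gave 17.1% and 19.5% with NES and 6.51% and 6.43% with NLS, and the relative log2 difference was 0.84 ± 0.14 (limma adjusted p = 9.72e-05). It kept its side of the threshold in all 12 alternatives. With ERM the rate was likewise above that with NLS, at 14.7% and 13.3% against 6.55% and 6.31% over 12 sites, a relative difference of 0.98 ± 0.12 (limma adjusted p = 2.17e-05). These comparisons share the NLS libraries and are therefore not independent. ERM against NES was not called over 24 sites, with 14.0% and 12.9% against 18.0% and 19.1% (relative difference 0.20 ± 0.09, limma adjusted p = 0.123). It was called higher with medians of site rates (0.41, limma adjusted p = 0.0394) and at sites listed for all 3 constructs (0.40, 0.0274), and uncentred it was called lower (-0.46, 0.000725).

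At the UROS site chr10:125807424 (minus strand), NES gave 28.8% and 34.7% and NLS 4.10% and 4.91%, and ERM averaged 23.3%. At chr10:125796161 NES gave 34.6% and 46.5%, NLS 12.9% and 16.3% and ERM averaged 40.8%. In K562 only 5 UROS sites were shared, and NES gave 20.3% and 26.3% against 10.9% and 15.2% with NLS, which was not called (relative difference 0.12 ± 0.21, limma adjusted p = 0.603). Between the lines with NES, over 26 sites, UROS gave 21.5% and 26.2% in K562 and 19.3% and 18.9% in HEK293T (relative difference -0.04 ± 0.11, limma adjusted p = 0.783). With 3 sites listed in all 4 groups, UROS was not tested for a difference between the lines.

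UROD differed between the lines in how far NES exceeded NLS. At 32 sites listed in all 4 groups, HEK293T gave 13.9% and 11.3% with NES and 6.99% and 6.81% with NLS. K562 gave 21.6% and 22.5% with NES and 7.54% and 6.96% with NLS, so the K562 NES libraries stood above all others and the NLS libraries of both lines lay together. The difference between the lines was 0.61 ± 0.13 on the log2 scale relative to the median gene (limma adjusted p = 0.00157), and it passed in all 14 alternatives. The same test did not pass for CPOX over 9 sites (0.37 ± 0.18, limma adjusted p = 0.136), for ALAS1 over 24 sites (0.16 ± 0.12, 0.299) or for FECH over 6 sites (0.20 ± 0.24, 0.562). CPOX did pass with medians of site rates (0.90, limma adjusted p = 0.0387), with the mean of log2 rates (0.66, 0.0229) and uncentred (0.50, 0.0435). FECH was at -0.024 without the second HEK293T NES library (0.955). Within K562, over 77 shared sites, UROD gave 11.8% and 12.2% with NES and 4.61% and 4.24% with NLS, a relative difference of 0.72 ± 0.06 (limma adjusted p = 6.01e-06). Those sites were 58.3% of the UROD list with NES and 74.8% of the list with NLS. Over all UROD sites of each K562 list the gap was narrower, with means of 8.72% with NES and 6.39% with NLS. The highest single rates there were 61.5% with NES and 62.2% with NLS.

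In HEK293T the same comparison over 33 UROD sites gave 13.7% and 11.0% against 6.85% and 6.66% and was not called (relative difference 0.20 ± 0.11, limma adjusted p = 0.104), but it was called without the second NES library (0.35, limma adjusted p = 0.00971). Without the first NES library it was 0.051 (limma adjusted p = 0.743), and at sites of all 3 constructs 0.093 (0.507). Between the lines with NES, over 48 sites, K562 gave 16.3% and 16.9% and HEK293T 10.7% and 8.91%, a relative difference of 0.42 ± 0.09 (limma adjusted p = 0.00388). With NLS, over 42 sites, K562 gave 6.91% and 6.32% and HEK293T 6.60% and 6.32%, and the libraries overlapped (relative difference -0.19 ± 0.09, limma adjusted p = 0.0785). ERM against NES was not called over 19 sites, at 9.44% and 8.54% against 18.5% and 15.8% (relative difference -0.26 ± 0.11, limma adjusted p = 0.0955). It was called without the second NES library (-0.37, limma adjusted p = 0.0445). ERM against NLS gave 9.29% and 8.56% against 9.24% and 8.74% over 20 sites, which overlapped (relative difference -0.15 ± 0.10, limma adjusted p = 0.228).

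At the leading UROD sites NES lay above NLS in both lines, and K562 averaged above HEK293T with NES. These sites were picked for a high HEK293T NES rate, which itself favours NES above NLS. At chr1:45015419 (plus strand), 156 bases from the gene's end, HEK293T gave 44.4% and 37.3% with NES and 26.0% and 23.2% with NLS, and K562 averaged 59.7% and 22.6%. The neighbouring positions chr1:45014530 and chr1:45014531 averaged 34.6% and 27.3% with NES in HEK293T and 61.5% and 38.6% in K562, while with NLS they averaged 14.2% and 8.78% in HEK293T and 17.3% and 9.53% in K562.

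**Figure D2:**
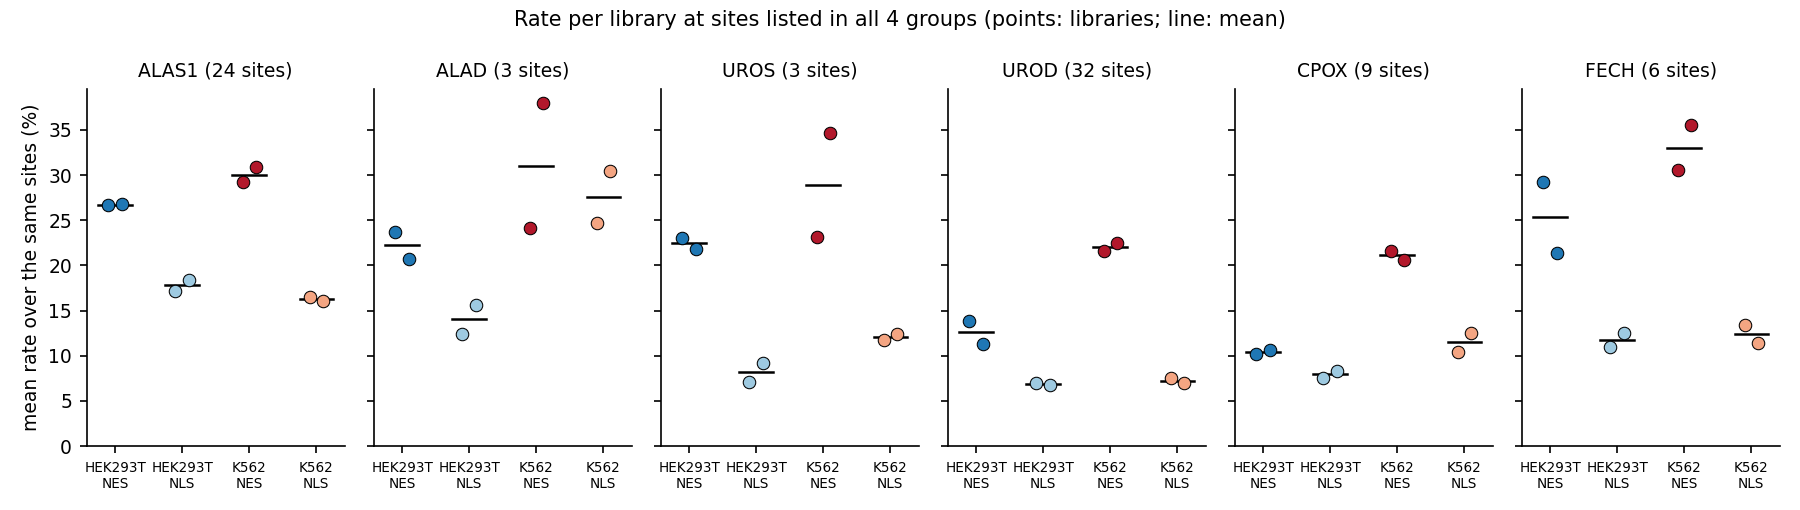
Mean rate (%, vertical axis) over sites listed in all 4 poly(A) groups for each enzyme with such sites, with 1 point per library and a line at the mean of 2. For UROD the K562 NES libraries, 21.6% and 22.5%, lie above the HEK293T NES libraries, while the NLS libraries of both lines lie between 6.81% and 7.54%.

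Among the late enzymes, CPOX, which oxidises coproporphyrinogen, was higher in K562 with NES. Over 43 shared sites K562 gave 17.9% and 16.6% and HEK293T 10.1% and 9.75%, a relative difference of 0.45 ± 0.07 (limma adjusted p = 0.00082). Of these sites 29 had both K562 values above both HEK293T values and 2 below, where 45.5% and 9.98% of 626527 sites did. With NLS, over 12 sites, K562 gave 9.78% and 11.8% and HEK293T 6.78% and 7.83%, and CPOX was not called (relative difference 0.33 ± 0.14, limma adjusted p = 0.0671). NES against NLS was not called for CPOX in either line, with relative differences of -0.11 ± 0.13 over 13 sites in HEK293T (limma adjusted p = 0.474) and 0.14 ± 0.08 over 37 sites in K562 (0.137). With all libraries kept, the K562 difference passed with no filter on sites (0.21, limma adjusted p = 0.0474) and uncentred (0.86, 8.34e-06). With 1 library left out it lay between 0.077 and 0.21. At chr3:98580448 (minus strand), the highest CPOX site in HEK293T, NES averaged 25.7% and NLS 11.1%, and K562 averaged 48.4% and 21.5%.

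Among sites listed with both NES and NLS in HEK293T, the widest NLS excess of any enzyme was in CPOX, at chr3:98585551. It gave 5.50% and 3.88% with NES and 9.90% and 10.8% with NLS. A further CPOX site, listed with NES in K562 alone, lay at chr3:98593581, base 31 of the RefSeq transcript start, and could be set in its sequence because the promoter table covers it. The 21 bases at chr3:98593571-98593591 on the minus strand are shown with the changed adenosine in capitals.
CPOX, base 31: ccggctcaatActccgggggt
Its rate was 31.7% and 22.4%, and the base before it is T. All 2391 sites of this list that fall within the first 50 transcribed bases of any gene were at an A, and 38.9% of them followed a T, where 12.7% of all adenosines in those stretches do.

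PPOX, which makes protoporphyrin, could be compared in K562 only. Its 13 shared sites gave 26.8% and 28.8% with NES and 15.7% and 17.4% with NLS, a difference like that of the median gene (relative difference 0.03 ± 0.11, limma adjusted p = 0.828). The 1 HEK293T NES site averaged 21.9% ± 2.69 (SD, n = 2), and the same site averaged 34.9% ± 3.08 in K562. The interval of PPOX overlaps B4GALT3 in RefSeq, and 0 PPOX sites lay in the overlap.

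FECH, the iron-inserting enzyme, had higher rates with NES than with NLS in both lines. In K562 its 65 shared sites gave 20.4% and 22.7% with NES and 7.95% and 7.91% with NLS, a relative difference of 0.72 ± 0.06 (limma adjusted p = 1.18e-05). In HEK293T only 7 sites were shared, with 28.1% and 22.6% against 11.2% and 12.7%, a relative difference of 0.42 ± 0.17 (limma adjusted p = 0.0387). The HEK293T call was lost without the first NES library (0.27, limma adjusted p = 0.271) and without either NLS library (adjusted p = 0.161 and 0.0643), with the mean of log2 rates (0.29, 0.151) and with the replicate number as a block (0.0539), and the median of site rates gave -0.060 (0.854). Neither ERM against NES, over 18 sites (19.3% ± 1.44 against 26.7% ± 2.69, SD, n = 2 each; relative difference 0.19 ± 0.11, limma adjusted p = 0.211), nor K562 against HEK293T with NES, over 56 sites (24.3% ± 0.985 against 17.3% ± 1.63; 0.14 ± 0.08, limma adjusted p = 0.154), was called. The latter was called with medians of site rates (0.34, limma adjusted p = 0.0191) and without the first HEK293T NES library (0.23, 0.00488), and without the second it was 0.049 (0.559).

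Among sites listed with both NES and NLS, a single FECH site had the widest gap of any enzyme's site in both lines. It lay at chr18:57554930 (minus strand), 31772 bases from the gene's start, and gave 60.5% and 55.6% with NES and 14.3% and 12.6% with NLS in HEK293T. In K562 it gave 68.6% and 80.8% with NES and 17.0% and 12.4% with NLS, and with ERM in HEK293T it averaged 47.8%. FECH sites were dense beyond 35000 bases from the start, where 148 of 252 K562 sites and 29 of 57 HEK293T sites with NES lay.

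**Figure D3:**
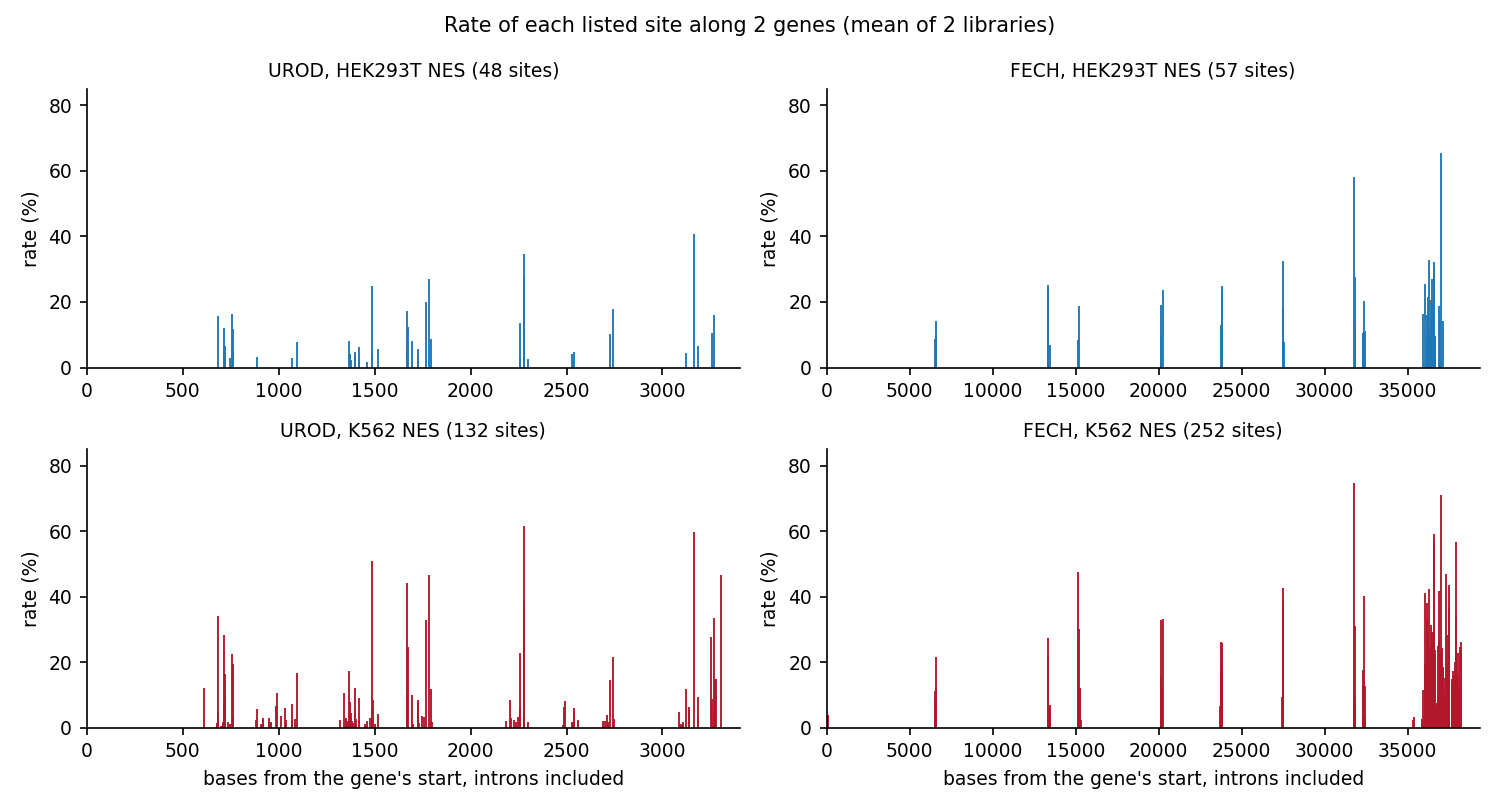
Rate of each listed site (%, mean of 2 libraries, vertical axis) by its distance from the gene's start in genomic DNA (bases, horizontal axis) for UROD and FECH with NES in HEK293T (upper) and K562 (lower). K562 lists 132 UROD sites against 48 and 252 FECH sites against 57, and the tall FECH line at 31772 bases stands in both lines.

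Counted together, 2 of 6 enzymes tested were higher with NES than with NLS in HEK293T relative to the median gene, against 32.8% of 6678 genes, and 0 of 6 were lower, against 31.9%. In K562, 2 of 7 were higher, against 37.4% of 6459 genes, and 1 of 7 was lower, against 37.3%. For the difference between the lines, 1 of 4 was higher in K562, against 18.4% of 5132 genes, and 0 were lower, against 16.6%. ERM against NES gave 0 of 5 higher, against 12.8% of 6823 genes, and 1 lower, against 20.9%. ERM against NLS gave 1 of 3 higher, against 29.8% of 5770 genes, and 1 lower, against 31.1%. K562 against HEK293T gave 2 of 6 higher with NES, against 24.9% of 7199 genes, and 0 lower, against 23.7%, while with NLS it gave 0 of 4 higher, against 19.3% of 5600 genes, and 1 lower, against 20.8%. With so few enzymes tested, these counts say nothing about the enzymes as a group.

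Centring sets the direction for some of the enzymes. The median gene was 0.66 log2 higher with NES than with NLS in HEK293T and 0.72 higher in K562, 0.66 lower with ERM than with NES, 0.13 higher with ERM than with NLS, and 0.35 (NES) and 0.23 (NLS) higher in K562 than in HEK293T, and the difference of NES minus NLS was 0.13 larger in K562. Without centring, 6 of 6 enzymes were called higher with NES than with NLS in HEK293T, as were 5201 of 6678 genes. In K562, 6 of 7 were, as were 5181 of 6459 genes. With ERM 5 of 5 were called lower than with NES, as were 6224 of 6823 genes. In K562 against HEK293T with NES 6 of 6 were called higher, as were 5325 of 7199 genes. Uncentred counts were 1 higher and 1 lower for ERM against NLS, where 2337 and 1293 of 5770 genes were. They were 1 higher and 0 lower for K562 against HEK293T with NLS, where 2734 and 388 of 5600 genes were. For the difference between the lines 2 were higher, where 1492 of 5132 genes were. Over all genes the share of calls that were higher went from 50.7% to 92.7% without centring for NES against NLS in HEK293T, from 50.1% to 93.2% in K562, from 37.9% to 0.08% for ERM against NES and from 49.0% to 64.4% for ERM against NLS. It went from 51.2% to 97.0% and from 48.1% to 87.6% for K562 against HEK293T with NES and NLS, and from 52.5% to 77.0% for the difference between the lines.

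At single sites, both NES values lay above both NLS values at 94 of 151 sites of the enzymes in HEK293T (62.3%), against 56.4% of 439580 sites of all genes, and below at 14 (9.27%), against 13.9%. In K562 they lay above at 165 of 227 sites (72.7%), against 59.3% of 419663 sites, and below at 9 (3.96%), against 14.9%. UROD gave 62 above and 1 below of 77 sites in K562 and FECH 48 and 1 of 65. Sites of 1 message share reads and are not replicates, so these shares carry no test.

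**Figure D4:**
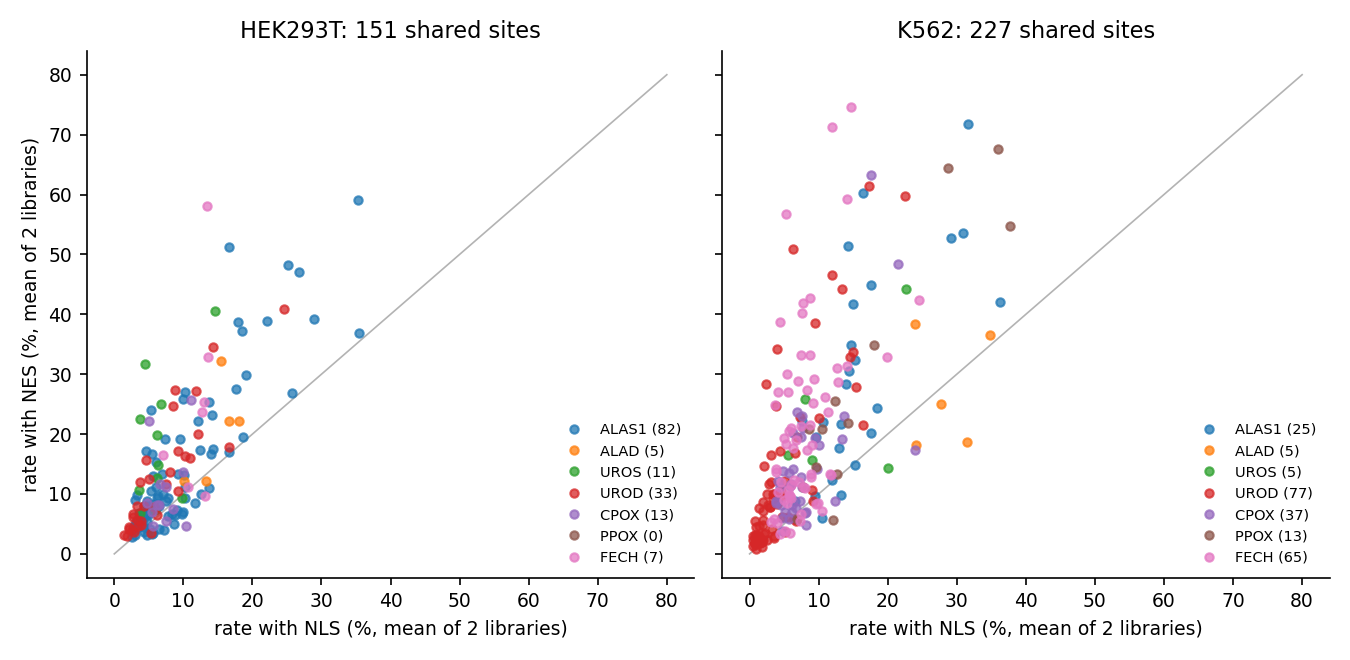
Rate with NES (%, vertical axis) against rate with NLS (%, horizontal axis) at each site listed for both in HEK293T (left, 151 sites) and K562 (right, 227 sites), coloured by enzyme, with the line of equal rates. Most points lie above the line, and in K562 the FECH point at 74.7% with NES and 14.7% with NLS is the farthest above it.

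In rRNA-depleted HEK293T RNA, which also holds RNA without a poly(A) tail, none of the 3 enzymes tested was called by limma. ALAS1 gave 26.5% and 29.7% with NES and 24.8% and 25.8% with NLS over 54 sites (relative difference 0.12 ± 0.23, limma adjusted p = 0.863). UROD gave 15.7% and 21.7% with NES and 23.6% and 26.3% with NLS over 25 sites, the opposite order from poly(A) RNA, and did not pass (relative difference -0.46 ± 0.23, limma adjusted p = 0.302, unadjusted p = 0.0484). Of its 25 sites 14 had both NES values below both NLS values and 0 above, where 29.0% and 25.7% of 198841 sites did. UROS gave 13.8% and 15.5% against 20.6% and 12.2% over 6 sites (-0.14 ± 0.27, limma adjusted p = 0.863). Few genes were called at all here, 0.924% of 5302 higher and 3.68% lower, and the 2 NES libraries stood apart, with mean rates over all sites of 17.6% and 21.4%. UROD passed without the first NES library (limma adjusted p = 0.0175) or the second (0.00269) but not without either NLS library (1.00 each). Those alternatives moved the calls over all genes as well, from 49 higher and 195 lower to 768 and 910 or 726 and 814 without an NES library, and to 1 and 11 or 2 and 10 without an NLS library. FECH and ALAD, with 12 and 2 NES sites, had no NLS site in rRNA-depleted RNA, PPOX had no site at all, and CPOX had 1 shared site.

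Genes around the pathway gave the background for these enzymes. ALAS2, the red cell form of the first enzyme, had 118 sites with NES and 64 with NLS in K562 and 0 in all HEK293T lists. SLC25A37, the mitochondrial iron importer, had 384 sites with NLS and 93 with NES in K562, while HEK293T had 15 and 3. HMOX1, which breaks haem down, went the other way, with 28 NES and 30 NLS sites in HEK293T and 0 in K562. Over a list of 35 genes of haem transport, iron-sulfur cofactors, regulation, use and breakdown, 33 had a site. With NES 7 of 32 had at least 2-fold more sites in K562, against 21.7% of all genes, and 3 at least 2-fold fewer, against 22.6%. With NLS 10 of 31 had at least 2-fold more, against 22.1%, and 4 at least 2-fold fewer, against 26.3%. For NES against NLS, 11 of 27 tested were higher and 6 lower in HEK293T, against 32.8% and 31.9% of all genes. Uncentred 24 were higher and 1 lower, against 5201 and 407 of 6678 genes. In K562, 14 of 29 were higher and 4 lower, against 37.4% and 37.3%. Uncentred 26 were higher and 1 lower, against 5181 and 379 of 6459 genes. In ERM against NES 3 of 27 were higher and 4 lower, against 12.8% and 20.9%. Uncentred 0 were higher and 26 lower, against 5 and 6224 of 6823 genes. In K562 against HEK293T with NES 15 of 27 were higher and 4 lower, against 24.9% and 23.7%. Uncentred 25 were higher and 0 lower, against 5325 and 163 of 7199 genes.

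Among those with the most shared sites, EIF2AK1, the haem-regulated kinase that restrains translation, was higher with NES than with NLS in HEK293T (0.56 ± 0.06 relative to the median gene, limma adjusted p = 8.01e-07) and in K562 (0.79 ± 0.03, 2.31e-07). The difference between the lines was 0.32 ± 0.07 (limma adjusted p = 0.00145), and with medians of site rates it did not pass (0.0594). LONP1, the mitochondrial protease known to degrade ALAS1, was lower with NES than with NLS within K562 relative to the median gene (-0.68 ± 0.05, limma adjusted p = 2.81e-06). Its rates were 9.04% and 8.84% with NES and 9.00% and 8.38% with NLS, and uncentred it was not called (0.041, limma adjusted p = 0.428). IREB2, which binds iron-responsive elements, was higher with NES than with NLS in HEK293T over 100 sites (0.65 ± 0.06, limma adjusted p = 1.63e-07). PGRMC1, a haem-binding membrane protein, was higher in that comparison over 192 sites (0.60 ± 0.05, limma adjusted p = 1.04e-07). TFAM, the mitochondrial transcription factor, was not called in that comparison over 196 sites (-0.03 ± 0.05, limma adjusted p = 0.679).

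In single HEK293T cells with NES, ALAS1 and UROD were the enzymes found in every cell. ALAS1 had between 29 and 148 listed sites per cell (median 95) and UROD between 16 and 144 (median 51), in 10 of 10 cells. UROS and PPOX had sites in 9 cells, FECH in 7, ALAD in 5 and CPOX in 2. Sites also listed in bulk were held by 8 cells for UROS, 6 for FECH, 4 for ALAD and 2 for CPOX. For PPOX only 1 cell held one, and bulk HEK293T poly(A) RNA with NES listed 1 PPOX site. The single-cell lists give a rate per site with no p-value and no read number, and control cells were not analysed here. At sites also listed in bulk, the mean rate per cell ranged from 0.585% to 48.0% for ALAS1 (median 20.9%) and from 0.781% to 32.4% for UROD (median 25.9%). In both cells with CPOX it was 100%, and in 4 cells with ALAD it was between 50.3% and 100%, where the same ALAD sites averaged between 18.8% and 47.5% in bulk. Sites seen in all 10 cells were chr3:52202622 in ALAS1 and chr1:45014039, chr1:45014530 and chr1:45015419 in UROD, with median rates of 22.8%, 41.2%, 59.0% and 51.3%.

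The genomic DNA of K562 with NLS listed 27 positions inside the 7 gene intervals, 15 of them in FECH and 8 in UROS. None of the 27 was at any of the 743 sites of the enzymes listed in K562 RNA, and the lowest adjusted p of the authors' deposited table among them was 1. Only 1 position, in UROD, had at least 20 reads in both libraries, and 17.4% of reads were changed with NLS against 53.8% in the control.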

How the data were processed

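Reads of the bulk and single-cell RNA libraries were processed with cutadapt, STAR, Bowtie2 and SAMtools on hg38, per the submitters' processing notes. How sites were called is not given in the sources used here. Each fraction deposited by the authors, in bulk or single-cell tables, is a site's share of reads with the change. Deposited beside it in bulk is an adjusted p-value for the site against control, made by the authors. Each count in the genomic DNA table is a number of reads as deposited by the authors. The authors' 7 columns of mean rates and 5 tables of ribosomal RNA or tRNA positions were not used.

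The 7 genes and the gene lists were chosen with earlier results of these data known. Sites of genes under 1 symbol were matched by gene, chromosome, position and strand. The fit to log2 mean rates over shared sites used limma 3.58.1 (R 4.3.3), two-sided, with the variance trended on the log2 number of shared sites, at least 5 of them, centred on the median gene, and Benjamini-Hochberg adjustment over genes. The fit was run on simulated data with independent normal noise per library, where estimated shifts matched the known ones in direction and size. That noise is of the kind the fit assumes, so the simulation checks the calculation and does not show how real libraries vary. Alternatives covered centring, the filter, the median and log2 mean of site rates, the trend, each left-out library, the replicate block and, in HEK293T, sites of all 3 constructs. Wider-list genes with rates were named from the 4 with most shared sites per comparison, and sites named are the 3 of highest HEK293T NES rate per enzyme and the widest differences. ALAS2, SLC25A37 and HMOX1, the 2-fold rule for site numbers, the promoter words, the base context, the 2000 and 35000 base limits and the single-cell sites were chosen after the files had been read. Gene intervals and promoters came from RefSeq (GRCh38.p14, the build of hg38), with all 7 symbols matched for intervals and 6 for promoters. Python 3.11.15, pandas 2.3.3, numpy 2.4.6 and matplotlib 3.10.9 were used.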

Additional observations from a re-analysis of the deposited data

Results flagged for a closer look

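UROD differed between the lines in its NES minus NLS difference, by 0.61 log2 relative to the median gene (limma adjusted p = 0.00157), with both K562 NES libraries above both HEK293T NES libraries. Among 12 sets of single-cell values examined for a cell far from the others, 3 held one. A chance rate of about 1 in 20 cannot be set against this, since these values include site numbers of 0 and rates near 100%. In cell 5 the mean ALAD rate at sites also listed in bulk was 50.3%, where the other 3 cells with a value lay between 99.6% and 100%. In cell 1 the mean UROD rate was 0.781%, where the other 9 cells lay between 18.4% and 32.4%. In cell 7 there were 43 CPOX sites, where cell 8 had 16 and the other 8 cells had 0.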

How the results depend on the processing

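Of 430 alternatives computed for single enzymes, 369 kept direction and side of the threshold, 27 passed only under the alternative, 11 no longer passed and 23 changed direction; for the wider list 306 of 376 kept both, 14 passed only under the alternative, 32 no longer passed and 24 changed direction. Without centring, 6 enzymes were called higher with NES than with NLS in HEK293T, and ALAS1 (0.59), ALAD (0.46), CPOX (0.55) and TFAM (0.63) changed direction; with medians FECH did (-0.060). Without centring, ERM against NES gave 5 enzymes lower, with UROS (-0.46), CPOX (-0.55), FECH (-0.47) and TFAM (-0.44) reversed. In K562 it gave 6 higher and 0 lower for NES against NLS, with LONP1 at 0.041. For K562 against HEK293T it gave 6 higher with NES, with ALAS1 (0.22), UROS (0.31), IREB2 (0.15) and TFAM (0.34) reversed, and 1 higher and 0 lower with NLS, with TFAM at 0.090, UROD at 0.034 and FECH at 0.086. For the difference between the lines it gave 2 higher.

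Other changes of direction were between values that did not pass. For NES against NLS in HEK293T, TFAM was 0.027 with no filter, 0.059 with medians, 0.024 with the mean of log2 rates and between -0.086 and 0.031 with 1 library left out. In K562, CLPX was -0.013 with medians, PPOX was -0.038 with the mean of log2 rates, and left-out libraries gave between -0.034 and 0.098 for PPOX and between -0.099 and 0.36 for UROS. For K562 against HEK293T with NES, UROS was 0.20 with medians and 0.13 with the mean of log2 rates, TFAM was 0.028 with medians, and left-out libraries gave between -0.18 and 0.097 for UROS and between -0.035 and 0.020 for TFAM. With NLS, EIF2AK1 was -0.014 with no filter, -0.039 with the mean of log2 rates and between -0.0045 and 0.012 with 1 library left out. For the difference between the lines, PGRMC1 was -0.14 with medians, -0.068 with the mean of log2 rates and between -0.035 and 0.12 with 1 library left out, where FECH lay between -0.024 and 0.42. Left-out libraries also gave between -0.14 and 0.37 for CPOX and between -0.082 and 0.015 for IREB2 in ERM against NES, and between -0.53 and 0.26 for UROS and between -0.33 and 0.019 for PGRMC1 in rRNA-depleted RNA, where PGRMC1 passed at its lowest value (limma adjusted p = 0.00907).

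For NES against NLS in HEK293T, 1 enzyme was higher with at least 10 shared sites, with medians, with the mean of log2 rates, at sites of all 3 constructs and with the replicate block. Leaving out 1 library gave between 1 and 3 higher. For ERM against NES, 1 was higher with medians and at sites of all 3 constructs, and left-out libraries gave between 1 and 2 lower. With no filter on sites, 2 were higher for ERM against NLS, 4 for NES against NLS in K562 and 1 for K562 against HEK293T with NLS, and 1 was lower in rRNA-depleted RNA. With at least 10 sites, 0 were lower in K562 and 1 was higher for K562 against HEK293T with NLS; with medians 0 were lower there. For the difference between the lines, medians and the mean of log2 rates gave 2 higher. Left-out libraries gave between 0 and 1 lower in K562 and in rRNA-depleted RNA, and between 0 and 1 higher and between 0 and 1 lower for K562 against HEK293T with NLS. The cause was not tested.

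Over all genes, rRNA-depleted calls went from 49 higher and 195 lower to 768 and 910 without the first NES library, 726 and 814 without the second, 1 and 11 without the first NLS library and 2 and 10 without the second, and to 74 higher with no filter. ERM against NES gave 899 lower with no trend against 1427, and 432 or 440 higher without 1 ERM library against 872. K562 against HEK293T with NES gave 1185 higher with medians against 1790. The difference between the lines gave 534 higher and 490 lower with medians against 944 and 853, and 1.52 times fewer lower without the second K562 NES library. Uncentred counts higher and lower were 5201 and 407 for NES against NLS in HEK293T, 5 and 6224 for ERM against NES, 5181 and 379 in K562, 5325 and 163 for K562 against HEK293T with NES, 2734 and 388 with NLS, and 1492 and 446 for the difference between the lines. Deviations of same-numbered libraries correlated between -0.02 and 0.09, so the numbers were not taken as pairs. With the replicate block FECH in HEK293T no longer passed (limma adjusted p = 0.0539), nor did TFAM for K562 against HEK293T with NLS (0.0627), and no other call of a named gene changed. With 1 library left out, the lone library is assumed to vary like the others. Unknown read depth limits both site numbers and rates.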
